A study of Homo sapiens with 20 samples.

Results

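The 46 genes whose symbols start with SLC25A in a count table of 17113 protein-coding genes were followed through the cells and the extracellular vesicles of 10 human colorectal cancer lines. They were chosen by symbol and not by a measured value, though earlier results of these data were known. Each line gave 1 library of total cell RNA and 1 of the RNA in the membrane-bound vesicles it shed into the medium, 20 libraries in all. By the labels all are untreated adenocarcinoma lines, COLO-201, HCT 116, HT-29, LoVo, LS123, SNU-C1, SW480 and WiDr from the colon and the pair LS1034 and LS513 from the cecum. The lines grew in medium with fetal bovine serum, and whether that serum was depleted of vesicles is not given in the sources used here. The series asks whether the RNA of vesicles recapitulates that of the cells they came from. Every cell library was made with a stranded ribosomal RNA depletion kit and every vesicle library with a low-input SMART-Seq kit, so compartment and library kit cannot be told apart. All 11 listed markers of colorectal epithelium reached a mean of 10 CPM (counts scaled to library size) or more in both compartments. From here on, CPM of single genes and counts of lines use library sizes adjusted by TMM, edgeR's scaling between libraries, unless library size is named. The expression limit, marker sums, the level that 0 counts allow and pair ratios use library size alone. Single lines differed, and KRT20, CDX1, VIL1, LGALS4 and CEACAM5 were at 0.0725 CPM or less in their lowest cell library. In the test described below EPCAM and CDH1 were called lower in vesicles (log2 fold change -3.13 and -4.22), and no marker was called higher.

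SLC25 proteins are the carriers of the inner mitochondrial membrane, apart from a few that sit in the outer membrane or in peroxisomes. They exchange nucleotides, phosphate, organic acids, amino acids and cofactors between the mitochondrial matrix and the cytosol, and so link the respiratory chain to the rest of metabolism. All of them are encoded in the nucleus and translated in the cytosol, and those of the inner membrane are inserted through the TOM pore, the small TIM chaperones and the TIM22 complex, in contrast to the respiratory subunits that are made inside the organelle. A carrier protein is built from repeats of similar sequence, and each repeat holds the conserved signature of the mitochondrial carrier family.

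The members resemble each other in sequence. In GENCODE 29 (GRCh38), 28 of the 46 members held at least 3 stretches of 18 bases that encode the carrier signature, 9 held 2, 6 held 1 and 3 (SLC25A46, SLC25A51 and SLC25A52) held 0. Among all 16799 genes with a coding sequence, 2.83% held at least 3 such stretches. The first 3 lines below are the 3 repeats of SLC25A5, the most abundant member, and the others are the first repeat of the paralogs that the comparisons turn on, each as 60 coding bases with the signature in capitals. SLC25A5 and SLC25A6 lie on chromosome X, SLC25A6 in its pseudoautosomal part, SLC25A4 on 4, SLC25A39 on 17, SLC25A40 on 7, SLC25A33 on 1 and SLC25A36 on 3.
SLC25A5 repeat 1: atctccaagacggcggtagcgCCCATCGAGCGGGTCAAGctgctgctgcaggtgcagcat
SLC25A5 repeat 2: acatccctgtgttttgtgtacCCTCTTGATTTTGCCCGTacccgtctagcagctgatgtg
SLC25A5 repeat 3: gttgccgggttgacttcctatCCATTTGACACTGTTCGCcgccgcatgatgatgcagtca
SLC25A6 repeat 1: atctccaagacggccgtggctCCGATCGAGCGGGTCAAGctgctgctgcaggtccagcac
SLC25A4 repeat 1: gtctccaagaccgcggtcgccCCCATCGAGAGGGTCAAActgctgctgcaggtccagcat
SLC25A39 repeat 1: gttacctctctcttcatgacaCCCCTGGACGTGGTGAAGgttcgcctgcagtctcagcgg
SLC25A40 repeat 1: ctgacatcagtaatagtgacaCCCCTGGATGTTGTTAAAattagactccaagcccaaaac
SLC25A33 repeat 1: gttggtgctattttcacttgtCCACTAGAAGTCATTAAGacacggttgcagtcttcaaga
SLC25A36 repeat 1: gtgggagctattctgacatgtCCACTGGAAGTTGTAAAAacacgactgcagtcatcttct
Coding sequences of SLC25A5 and SLC25A6 were 78.8% identical, with a longest identical run of 29 bases, and those of SLC25A39 and SLC25A40 were 61.1% identical with a longest run of 13. SLC25A51 and SLC25A52 were 97.7% identical with a run of 169 bases, so the reads of that pair cannot be assigned with the same certainty and the counts of both are uncertain. The counts of SLC25A6 depend on how reads that match both copies of the pseudoautosomal sequence were treated, which is not given in the sources used here.

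Library depth was 24.8 to 37.4 M counts in cells and 1.75 (SNU-C1) to 24.4 M (HT-29) in vesicles. Vesicle libraries also held reads of genes that the cells hardly express. From 2077 genes whose counts did not pass 10 in any of the cell libraries, this background was estimated at 1.75% (SW480) to 41.7% (SNU-C1) of vesicle counts, against 0.0272% to 0.140% in cells. Markers of leukocytes, erythroid cells and platelets, fibroblasts and endothelium, and muscle summed to medians of 0.969 to 18.9 CPM in cells and 57.7 to 171.9 CPM in vesicles, and none was at 0 counts over all libraries of a compartment. The leukocyte sum reached 2735 CPM in the highest cell library and 1013 CPM in the highest vesicle library. Its member LYZ was lower in vesicles, with means of 851 CPM in cells and 198 CPM in vesicles, while the other listed leukocyte markers had higher means in vesicles. The part of all these markers in the results was not tested. Results are therefore given for all 10 lines, after subtraction of the background expected per gene, and for the 5 lines of lower background (LS513, HCT 116, HT-29, COLO-201 and SW480). WiDr resembled HT-29 in cells (r = 0.766 over 10064 genes, after subtraction of the mean over lines) and LS123 resembled HCT 116 (r = 0.555), and the tests treat all 10 as independent. HT-29 and WiDr are known to derive from the same person. The labels give no such link for LS123 and HCT 116, and whether a label or culture was exchanged was not tested, so values of LS123 are those of the libraries labelled LS123. Without WiDr and LS123 the members called were those of the 10-line test below, with SLC25A39 and SLC25A51 added as higher.

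In the cells the ADP/ATP carrier SLC25A5 was the most abundant member. Per transcript length, as TPM (counts per transcript length, scaled to the same sum in each library over the genes of the table), SLC25A5, the main ADP/ATP carrier of dividing cells, stood at 1167 ± 331 (SD, n = 10 lines), and SLC25A3, the phosphate carrier, at 710 ± 310. SLC25A39, a carrier needed for mitochondrial glutathione, followed at 302 ± 88.4, and SLC25A1, the citrate carrier that feeds cytosolic acetyl-CoA, at 223 ± 189. SLC25A46, an outer membrane protein of mitochondrial dynamics, SLC25A36, a pyrimidine nucleotide carrier, SLC25A6, a further ADP/ATP carrier, and SLC25A32, the folate and flavin carrier, lay close together at 102 ± 49.7, 98.1 ± 62.8, 96.3 ± 59.7 and 84.7 ± 34.8. These 4 neighbours, and SLC25A11 (83.9 ± 36.0) and SLC25A24 (81.6 ± 32.1) below them, did not differ beyond their spread over lines. With the union of all exons as length, SLC25A46 and SLC25A36 dropped to ranks 16 and 14, and SLC25A3 from rank 2 to 4, at 233 TPM behind SLC25A1 (321) and SLC25A39 (254). SLC25A5 held rank 1 with either length, and the place of the others depends on the length taken.

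The first 8 carriers made up 77.6% ± 2.94 of the family's TPM in cells (SD, n = 10 lines) and 76.4% ± 8.20 in vesicles. SLC25A5 alone held 32.6% ± 7.20 in cells and 32.9% ± 8.42 in vesicles. The family as a whole took 0.319% ± 0.0398 of cell counts and 0.383% ± 0.0602 of vesicle counts. At least 10 counts were seen for a mean of 39.6 of the 46 members in a cell library and for 44.0 in a vesicle library. By transcript length SLC25A5, SLC25A3, SLC25A39 and SLC25A1 had ranks 1 to 4 in both compartments.

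**Figure D1:**
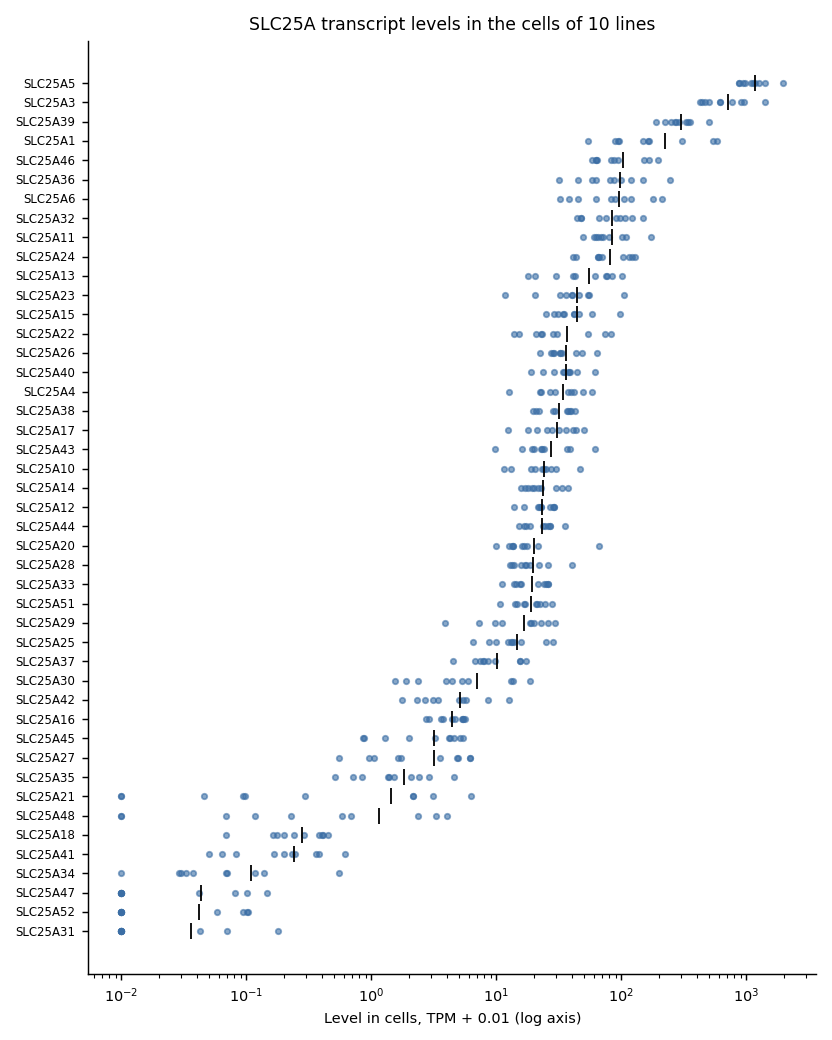
Levels of SLC25A transcripts in the cells of 10 lines, as TPM plus 0.01 on a log axis, with 1 point per line and a bar at the mean. SLC25A5 and SLC25A3 stand above the rest, and members from SLC25A21 downwards have lines at 0 counts or near it.

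Among the cell lines the levels of a member usually spanned a few fold. For the 38 members above the expression limit of the test (0.407 CPM) in every cell library, the ratio of the highest to the lowest line had a median of 3.58. It ran from 1.88 for SLC25A12, an aspartate/glutamate carrier, to 12.3 for SLC25A30, an uncoupling-protein-like member that was highest in HCT 116 and lowest in LS1034. SLC25A1 differed 11.4-fold in cells, from 49.2 CPM in LoVo to 559 CPM in HT-29, and WiDr, the line that resembled HT-29, was next at 497 CPM. SLC25A21, the oxoadipate carrier of lysine and tryptophan breakdown, had 189, 105, 71 and 53 counts in the cells of HCT 116, LoVo, SW480 and LS123, and 0 to 9 counts in the other 6 lines. In the vesicles of HCT 116, whose cells had the most SLC25A21, 0 counts were found, which allows up to 0.650 CPM. In vesicles its total of 163 counts over 10 lines lay beside 177 expected from background.

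Over all 10 lines, 7 of the 44 members tested were called higher in vesicles and 7 lower (edgeR quasi-likelihood test, Benjamini-Hochberg adjusted p under 0.05 over all genes). Of all 15130 genes tested, 28.6% were called higher and 28.1% lower, so both shares of the family (15.9% each) lay below the background. SLC25A31 and SLC25A52 did not reach the limit and were not tested. Of the 7 higher members, 5 (SLC25A18, SLC25A34, SLC25A41, SLC25A47 and SLC25A48) passed the limit mainly through the vesicle libraries, where a rise is the only call open to them. Of the 38 members at the limit in every cell library, 2 were called higher, SLC25A45 among them, and 7 lower (SLC25A12, SLC25A13, SLC25A24, SLC25A32, SLC25A36, SLC25A40 and SLC25A44), with a median log2 fold change of -0.27. Of the 10064 genes with the same property, 6.92% were called higher and 42.1% lower, with a median of -0.51.

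The balance of calls moved with the scaling between libraries. With DESeq2's size factors 14 members were called higher and 3 lower, beside 35.2% and 18.5% of all genes. With library size alone they were 17 and 5, beside 36.6% and 16.3%, and with upper-quartile scaling 20 and 2, beside 46% and 11.6%. Called higher with each of these scalings but not with TMM were 7 members, SLC25A16, SLC25A26, SLC25A33, SLC25A35, SLC25A39, SLC25A42 and SLC25A51. These scalings raised the median of all genes tested from a log2 fold change of 0.01 to 0.38, 0.48 and 0.76, and that of the tested members from -0.03 to 0.34, 0.43 and 0.72. The 2 medians lay within 0.05 of each other under each of these scalings. A change of scaling moves all fold changes by nearly the same amount, so this is 1 comparison repeated and not a separate test per scaling. Leaving out LoVo had a like effect, with 10 higher and 3 lower, beside 31.5% and 15.8% of all genes, and a median of all genes of 0.35. In bulk libraries a transcript carried by more vesicles and one present in more copies per vesicle cannot be told apart.

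After background subtraction 10 members were called higher and 4 lower among the 39 that could be tested, beside 15.3% and 19.3% of all 12822 genes. In the 5 lines of lower background 14 were called higher and 3 lower, beside 19.5% and 19% of 14793 genes. In all 3 of these fits (10 lines as deposited, 10 lines after subtraction, 5 lines) SLC25A24, SLC25A40 and SLC25A44 were called lower and SLC25A45 higher. SLC25A47 was also called higher in each. It passed the limit only through its vesicle libraries, so a rise was the only call open to it.

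**Figure D2:**
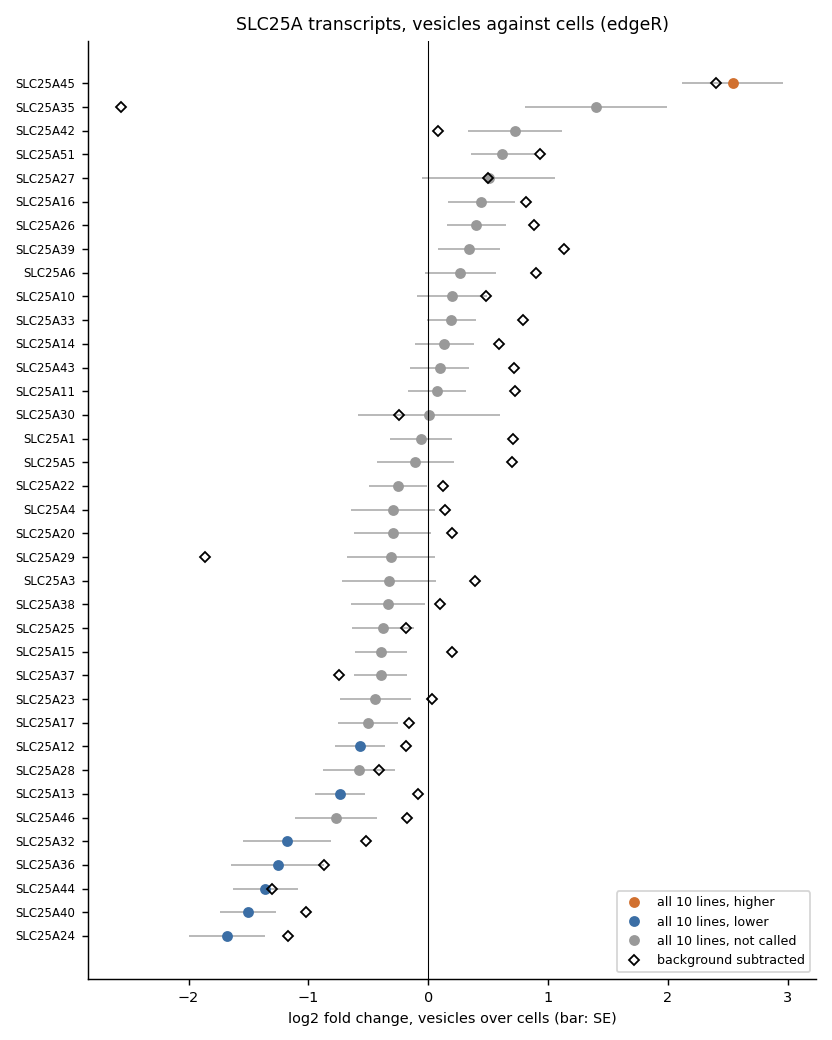
Log2 fold change of vesicles over cells for members at the expression limit in every cell library. Filled points with SE bars are the 10-line fit, coloured by call, and open diamonds are the fit after background subtraction. Subtraction moved SLC25A35 and SLC25A29 far to the left and most others to the right.

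Of the ADP/ATP carriers, none was called in either direction over 10 lines. SLC25A5 ranged from 568 to 1478 CPM in cells (median 823) and from 244 to 1673 CPM in vesicles (median 867). Its log2 fold change was -0.11 (SE 0.32, adjusted p = 0.792, edgeR), and the groups overlapped over nearly their whole range. With the other 3 scalings the value was 0.26 to 0.63 and not called. Vesicles exceeded cells in 6 of 10 lines, and the vesicle levels of LS123 and SNU-C1, at 244 and 342 CPM, were the lowest although SNU-C1 had the highest cell level. The fold change was positive and called after background subtraction (0.70, SE 0.24, adjusted p = 0.0321, edgeR) and in the 5 lines of lower background (0.61, SE 0.18, adjusted p = 0.0313). Background made up 0.123% of the vesicle counts of SLC25A5 itself. Subtraction also changed the scaling of every library, and the part of that in the result was not tested.

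SLC25A6 ranged from 39.5 to 248 CPM in cells (median 106) and from 11.9 to 359 CPM in vesicles (median 120), with overlapping groups. It was higher in the vesicles of 8 of 10 lines, at a log2 fold change of 0.27 (SE 0.30, adjusted p = 0.461, edgeR). SLC25A4, the carrier typical of heart and muscle, had a mean of 85.9 CPM in cells and 85.5 CPM in vesicles and a log2 fold change of -0.29 (adjusted p = 0.496, edgeR). In the 5 lines of lower background SLC25A4 (0.65, adjusted p = 0.0386) and SLC25A6 (0.82, adjusted p = 0.0359) were called higher by edgeR, as was SLC25A5. SLC25A6 was also called with library size alone (0.72) and with upper-quartile scaling, and SLC25A4 turned to values from 0.07 to 0.44 with the other scalings and was not called. SLC25A31, the testis form, had 7 counts over all cell libraries and 117 over all vesicle libraries, where 84.1 were expected from background.

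The phosphate carrier SLC25A3 ranged from 380 to 1219 CPM in cells (median 530) and from 27.2 to 926 CPM in vesicles (median 639). The low end in vesicles was SNU-C1 alone, and the next line, WiDr, had 205 CPM. The log2 fold change was -0.33 (SE 0.40, adjusted p = 0.499, edgeR) in 10 lines, -0.04 without SNU-C1 and 0.04 to 0.40 with the other scalings, none of them called. In the 5 lines of lower background it was 0.54 (SE 0.18, adjusted p = 0.0451).

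The carriers that exchange ATP-magnesium for phosphate adjust the adenine nucleotide content of the matrix, and SLC25A24 is the one regulated by calcium that is common in dividing cells. With TMM scaling over 10 lines it had the lowest fold change of the 38 members, while SLC25A44 lay lower after background subtraction and in the 5 lines of lower background. Its level was 81.3 to 279 CPM in cells (median 155) and 19.7 to 124 CPM in vesicles (median 62.1). The ranges overlapped, but within each line the vesicles were lower, in 10 of 10 lines, also with library size alone. The log2 fold change was -1.68 (SE 0.32, adjusted p = 0.000423, edgeR), and -1.17 after background subtraction (adjusted p = 0.0143). Its calcium-regulated paralogs SLC25A23 (-0.44) and SLC25A25 (-0.38) were not called, and SLC25A41, the short form without the calcium-binding domain, had 53 counts in cells and 243 in vesicles beside 197 expected.

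Of the di-, tri- and oxo-acid carriers at the limit in every cell library, none was called over 10 lines. SLC25A1 ranged from 49.2 to 559 CPM in cells (median 142) and from 55.5 to 415 CPM in vesicles (median 158), with a log2 fold change of -0.06 (SE 0.26, adjusted p = 0.858, edgeR). The other scalings gave 0.31 to 0.68, called higher with upper-quartile scaling (adjusted p = 0.0385). The groups overlapped, and HT-29 and WiDr were the highest lines in both. SLC25A11, the oxoglutarate/malate carrier, and SLC25A10, the dicarboxylate carrier, had log2 fold changes of 0.07 and 0.20. After background subtraction SLC25A1 (0.70, adjusted p = 0.0451) and SLC25A11 (0.73, adjusted p = 0.0311) were called higher by edgeR. SLC25A35 had 328 counts in vesicles against 384 expected from background, so its vesicle level was not separable from background. None of the uncoupling-protein-like members SLC25A14, SLC25A27 and SLC25A30 was called, with log2 fold changes of 0.14, 0.50 and 0.0039.

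Among the 8 amino acid and one-carbon carriers at the limit, 3 were called lower and none higher, a share of 37.5% beside the 42.1% of all genes at the limit. SLC25A13, an aspartate/glutamate carrier of the malate-aspartate shuttle and the urea cycle, ranged from 28.9 to 184 CPM in cells (median 99.5) and from 23.3 to 173 CPM in vesicles (median 42.1). The groups overlapped over most of their range, and vesicles were lower in 9 of 10 lines. The log2 fold change was -0.74 (SE 0.21, adjusted p = 0.00797, edgeR), but -0.09 (adjusted p = 0.75) after background subtraction and 0.0085 with upper-quartile scaling, and it was not called with any of the other 3 scalings or without LoVo (-0.39, adjusted p = 0.238). Its paralog SLC25A12 fell in all 10 lines by 0.57 on the log2 scale (SE 0.21, adjusted p = 0.0295, edgeR), a call that was lost after subtraction (-0.19, adjusted p = 0.623) and without LoVo, LS1034 or SNU-C1. That call was also lost with each of the other scalings, at -0.20 with DESeq2's size factors, -0.10 with library size alone, where 3 of the lines had higher SLC25A12 in vesicles, and 0.17 with upper-quartile scaling.

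SLC25A44, which carries branched-chain amino acids, had 31.3 to 73.7 CPM in cells (median 51.0) and 5.50 to 36.0 CPM in vesicles (median 18.2), with little overlap. It was lower in the vesicles of 9 of 10 lines at a log2 fold change of -1.36 (SE 0.27, adjusted p = 0.000625, edgeR). The value was -1.30 (adjusted p = 0.0093) after subtraction and -1.92 (adjusted p = 0.00224) in the 5 lines of lower background, although the expected background equalled 31.7% of its vesicle counts. With library size alone it was -0.89 (adjusted p = 0.0491, edgeR), and vesicles were higher in 3 of 10 lines. With upper-quartile scaling the fold change was -0.61 and no longer called (adjusted p = 0.0992). SLC25A29, a carrier of basic amino acids, was not called over 10 lines and was called lower after subtraction (-1.86, SE 0.66, adjusted p = 0.042, edgeR), where the expected background equalled 46.4% of its vesicle counts. The ornithine carrier SLC25A15, the glutamate carrier SLC25A22, the S-adenosylmethionine carrier SLC25A26 and the glycine carrier SLC25A38 had log2 fold changes of -0.39, -0.25, 0.40 and -0.34 and were not called over 10 lines. SLC25A26 was called higher after subtraction (0.88, adjusted p = 0.0257, edgeR) and in the 5 lines of lower background (1.03, adjusted p = 0.0116).

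Of the nucleotide and cofactor carriers, SLC25A32 and SLC25A36 were called lower. SLC25A32 had 72.7 to 246 CPM in cells (median 137) and 14.4 to 174 CPM in vesicles (median 78.4), lower in 9 of 10 lines, at a log2 fold change of -1.18 (SE 0.37, adjusted p = 0.0132, edgeR). SLC25A36 had 54.8 to 417 CPM in cells (median 142) and 18.8 to 148 CPM in vesicles (median 62.4), lower in 8 of 10 lines, at -1.25 (SE 0.39, adjusted p = 0.0127, edgeR). Both groups of values overlapped, and both calls were lost without LoVo (-0.65 for each), after subtraction and in the 5 lines of lower background. They were also lost with DESeq2's size factors (adjusted p = 0.0595 and 0.0551, edgeR) and with upper-quartile scaling (0.243 and 0.209). LoVo had the highest cell level of SLC25A36 of the 10 lines. SLC25A33, which like SLC25A36 carries pyrimidine nucleotides, had 24.9 to 57.4 CPM in cells (median 42.6) and 18.5 to 108 CPM in vesicles (median 53.0), overlapping groups and no call over 10 lines as deposited (0.19, SE 0.21, adjusted p = 0.44, edgeR). It was called higher after background subtraction (0.79, adjusted p = 0.0138) and with each of the other 3 scalings (0.57 to 0.94, edgeR), but not in the 5 lines (0.51, adjusted p = 0.195).

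The NAD carrier SLC25A51 was higher in 9 of 10 lines and not called with TMM scaling (0.62, adjusted p = 0.056, edgeR). It was called higher with the other 3 scalings (0.99 to 1.36), without LoVo and in the 5 lines of lower background (1.05, adjusted p = 0.0174), but not after subtraction (0.93, adjusted p = 0.188). The coenzyme A carriers SLC25A16 and SLC25A42 and the peroxisomal carrier SLC25A17 were not called with TMM scaling (0.44, 0.72 and -0.50). The carnitine/acylcarnitine carrier SLC25A20 was likewise not called (-0.30).

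In the iron and glutathione group the close relatives SLC25A39 and SLC25A40 parted. SLC25A39 had 185 to 404 CPM in cells (median 253) and 183 to 613 CPM in vesicles (median 368). Vesicles were higher in 7 of 10 lines (9 with library size alone), at a log2 fold change of 0.34 (SE 0.26, adjusted p = 0.277, edgeR). SLC25A40 had 45.1 to 156 CPM in cells (median 82.9) and 15.5 to 55.9 CPM in vesicles (median 24.4), lower in 10 of 10 lines, at -1.51 (SE 0.23, adjusted p = 8.46e-05, edgeR). The SLC25A40 ranges overlapped only at the edges, those of SLC25A39 over most of their width. After background subtraction SLC25A39 was called higher (1.13, SE 0.21, adjusted p = 0.000801) and SLC25A40 lower (-1.02, SE 0.24, adjusted p = 0.0052) in the same edgeR fit. SLC25A39 was also called higher with each of the other 3 scalings (0.71 to 1.08) and in the 5 lines (0.88, adjusted p = 0.00818). The mitoferrins SLC25A37 and SLC25A28, which import iron for heme and iron-sulfur clusters, were not called (-0.40 and -0.58).

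SLC25A46 had 59.4 to 220 CPM in cells (median 97.7) and 4.38 to 135 CPM in vesicles (median 74.9), at a log2 fold change of -0.77 (SE 0.34, adjusted p = 0.067, edgeR). The groups overlapped, and SNU-C1 vesicles were the lowest by far. It was called lower without HT-29 (-0.92, adjusted p = 0.0403, edgeR) or without SW480 (-0.93, adjusted p = 0.0369), but was -0.18 (adjusted p = 0.789) after subtraction and -0.14 (adjusted p = 0.686) in the 5 lines of lower background. SLC25A45, by contrast, had 1.09 to 6.78 CPM in cells (median 4.76) and 5.22 to 51.8 CPM in vesicles (median 20.1), with an overlap of the ranges at their edges and higher vesicles in each of the 10 lines. Its log2 fold change was 2.54 (SE 0.42, adjusted p = 0.000153, edgeR), and 2.40 (adjusted p = 0.00364) after subtraction of a background that equalled 42.5% of its vesicle counts. In the 5 lines of lower background it was 1.84 (SE 0.54, adjusted p = 0.028). SLC25A43 was not called over 10 lines as deposited (0.10) and was called higher after subtraction (0.71, adjusted p = 0.0404, edgeR), with library size alone (0.56) and with upper-quartile scaling (0.83).

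**Figure D3:**
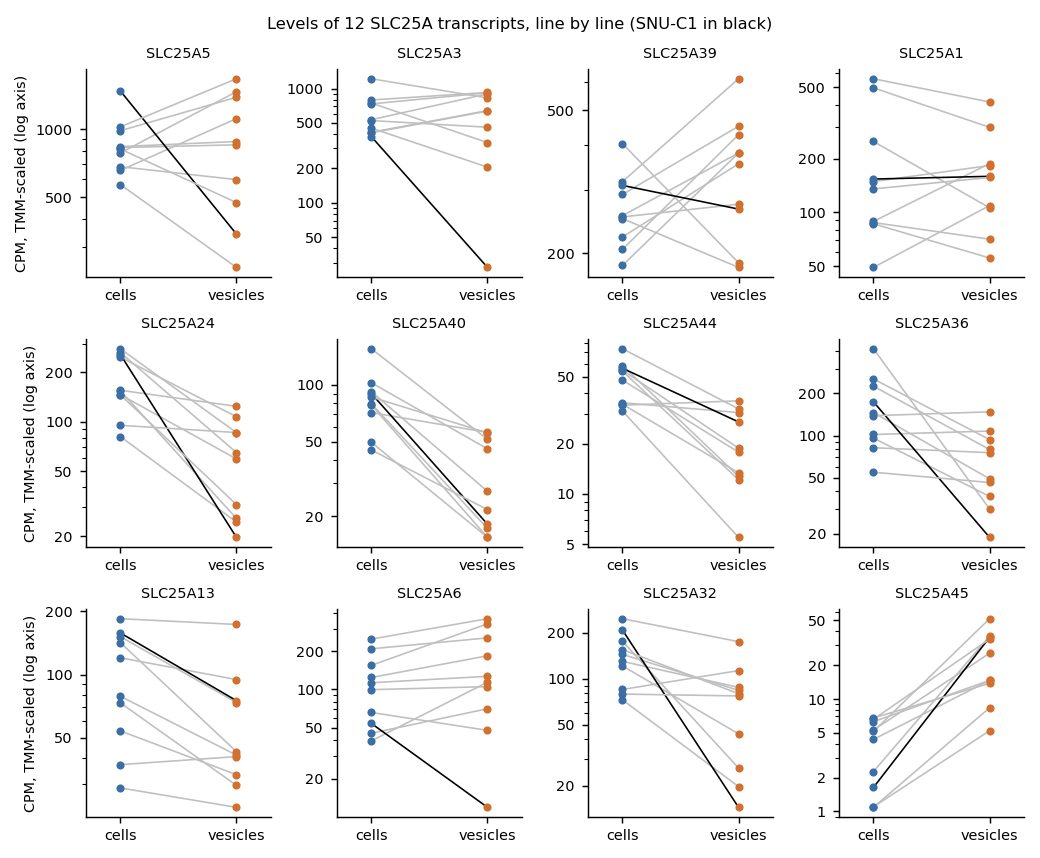
Levels of 12 SLC25A transcripts in the cells and vesicles of 10 lines, as TMM-scaled CPM on log axes, with a line joining each pair and SNU-C1 in black. SLC25A24 and SLC25A40 fall in each of the 10 lines, SLC25A45 rises in each, and SLC25A3 of SNU-C1 vesicles (27.2 CPM) lies far below the rest.

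Members that the cells hardly express gave few counts in vesicles, and these were set beside the background expected from silent genes of like length and GC content. SLC25A47, a carrier known from liver, had 9 counts over all cell libraries and 450 over all vesicle libraries, where 252 were expected. It was above the expectation in 10 of 10 lines. Like SLC25A31 and SLC25A52, it was itself among the silent genes on which the background was fitted. How far single silent genes scatter around their expectation is not given here, so counts above it do not show a signal beyond background. SLC25A48, a choline carrier, ranged from 0 to 2.38 CPM in cells (median 0.264) and from 2.36 to 19.7 CPM in vesicles (median 11.8), with groups that touched at their edges. Its 619 vesicle counts stood beside 602 expected. SLC25A18, a glutamate carrier, had 463 counts against 396 expected and SLC25A34 had 515 against 353. SLC25A52 had 41 against 80.5. A call of higher in vesicles for SLC25A18, SLC25A34, SLC25A41 and SLC25A48 was thus one at 1.03 to 1.46 times the background expectation.

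Ratios of 2 members within a library do not depend on the scaling between libraries, and 10 pairs of related carriers were compared in this way. In 2 of the 10 pairs the ratio differed between compartments (exact two-sided sign-flip permutation test over 10 lines, Benjamini-Hochberg adjusted over 10 pairs). The pairs were chosen with earlier results of these data known, so this is not an independent test, and the adjustment covers only these 10 pairs. The log2 ratio of SLC25A39 to SLC25A40 rose from 1.70 in cells to 3.52 in vesicles, a mean difference of 1.83 (SD 0.89, n = 10, exact p = 0.00195, adjusted p = 0.00977). It was higher in the vesicles of 10 of 10 lines, by between 0.56 in LS123 and 2.86 in LoVo. WiDr and HT-29 were also at the low end, at 0.60 and 0.93. GC content was 62.05% for SLC25A39 and 36.03% for SLC25A40, and transcript length 1553.5 and 4045 bases. Fold changes over all genes went with both properties, as given below, and compartment and library kit cannot be told apart. The part of these in the ratio was not tested.

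The log2 ratio of SLC25A33 to SLC25A36 rose from -1.78 to -0.30, a mean difference of 1.49 (SD 1.13, n = 10, exact p = 0.00195, adjusted p = 0.00977). It was higher in the vesicles of 10 of 10 lines, from 0.21 in COLO-201 and 0.24 in WiDr to 3.62 in LoVo, so its size varied more between lines. GC content was 45.67% for SLC25A33 and 39.93% for SLC25A36, and transcript length 3854 and 2969.5 bases, and their part was likewise not tested. The p of 0.00195 is the smallest that 10 sign flips can give. In the 5 lines of lower background the differences were 1.95 and 1.05, where 5 lines cannot give an exact p below 0.0625.

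The other 8 pairs did not pass. For SLC25A24 to SLC25A23 the mean difference was -1.24 (SD 1.18, n = 10, negative in 8 lines, p = 0.0195 by exact permutation, adjusted p = 0.0651). For SLC25A24 to SLC25A25 it was -1.31 (SD 1.60, n = 10, negative in 8 lines, p = 0.0293 by exact permutation, adjusted p = 0.0732). Without HT-29 the first of these reached an adjusted p of 0.026 in the exact permutation test, and without SW480 one of 0.0488. The ratio of SLC25A5 to SLC25A6 differed by -0.35 (SD 0.43, n = 10, exact permutation p = 0.0391, adjusted p = 0.0781), and turned to 0.31 after background subtraction. For SLC25A3 to SLC25A5, SLC25A5 to SLC25A4, SLC25A13 to SLC25A12, SLC25A37 to SLC25A28 and SLC25A16 to SLC25A42 the mean differences lay between -0.29 and 0.22.

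**Figure D4:**
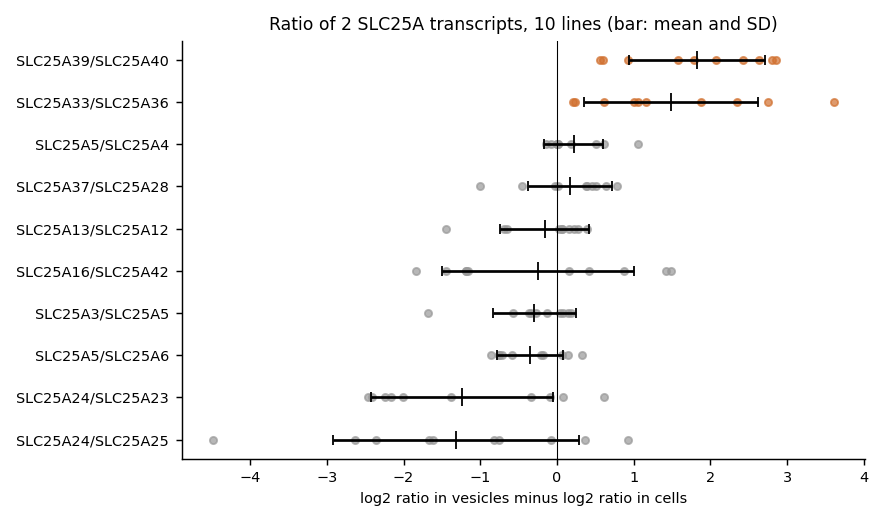
Difference between vesicles and cells in the log2 ratio of 2 SLC25A transcripts, for 10 pairs, with 1 point per line and bars for the mean and SD over 10 lines. The points of SLC25A39/SLC25A40 and SLC25A33/SLC25A36, in colour, lie to the right of 0 in each line, while those of the other 8 pairs fall on both sides.

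How far vesicle levels followed cell levels over lines is described here per carrier as Spearman's rho, without a test. Over the 10 lines, the highest values among the 38 members at the limit were 0.88 for SLC25A13 and for SLC25A33, 0.83 for SLC25A6 and 0.67 for SLC25A1. Over 8 lines, without WiDr and LS123, these were 0.83, 0.86, 0.88 and 0.76. For the 38 members at the limit the median was 0.38 (0.25 over 8 lines), 13 were above 0.5 and 6 below 0. SLC25A39 and SLC25A36 had -0.09 and -0.08 over 10 lines, 0.12 and -0.36 over 8 lines, and 0.70 and 0.20 over the 5 lines of lower background. All points of a line share its 2 libraries and their depth and background. The spread over lines was larger in vesicles than in cells for 28 of the 38 members, with a median SD of log2 CPM of 0.587 in cells and 0.827 in vesicles. Neither rho nor this spread is given here for all genes at the limit, so these counts are not a result about the family. With 10 lines each rho is uncertain, and whether carriers differ in it was not tested.

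Fold changes across members went with level and base composition as they did across all genes. Over the 38 members, Spearman's rho of the log2 fold change was -0.53 with the level in cells (-0.53 over the 10064 genes at the limit), 0.43 with GC content (0.33) and -0.31 with transcript length (-0.33). The level in cells is also the denominator of the fold change, so a negative relation with it is partly built in. After background subtraction the relation over the members was -0.05 with level, 0.27 with GC content and -0.44 with transcript length. These are relations across genes, which are not independent replicates and share the same libraries.

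Set beside other genes of mitochondria and transport, the family's median lay between that of other solute carriers and those of mitochondrial ribosomal proteins and respiratory subunits. It did not lie below every list of nuclear-encoded mitochondrial genes. The 15 other mitochondrial membrane channels and carriers had a median log2 fold change of -0.39 with TMM scaling, below the family's. With TMM scaling, counting genes at the limit in every cell library, other solute carriers, mostly proteins of the cell surface and other membranes, had 10 of 144 higher and 92 lower, with a median log2 fold change of -1.14. All 13 mitochondrially encoded mRNAs were lower, with a median of -3.22. Mitochondrial ribosomal proteins had 3 of 74 higher and 6 lower (median 0.03), and nuclear-encoded subunits of complexes I, III, IV and V had 4 of 76 higher and 8 lower (median 0.12). With DESeq2's size factors, library size alone and upper-quartile scaling the higher calls were 19, 36 and 45 of the 74 ribosomal proteins and 18, 37 and 47 of the 76 subunits, beside 14.5%, 17.1% and 28.1% of all genes at the limit. Lower calls were at most 2 and 3, beside 27.8%, 24.4% and 17.4% of all genes. The SLC25A members had 2 of 38 higher and 7 lower. Their median of -0.27 thus lay between those of the ribosomal proteins and subunits and the -0.51 of all genes at the limit. The 2 medians compared next are those of the family and of all genes at the limit. With DESeq2's size factors, library size and upper-quartile scaling these 2 medians were 0.10 and -0.14, 0.20 and -0.05, and 0.47 and 0.23, and without LoVo they were 0.09 and -0.16. The family's median thus lay above that of all genes in each of these fits, but its sign turned. The scalings move both medians by nearly the same amount, so they do not test the gap separately.

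Background subtraction also raised the number of higher calls in these lists. Respiratory subunits then had 45 of 76 higher and 1 lower (median 0.84) and mitochondrial ribosomal proteins 33 of 74 higher and 0 lower (median 0.64), while the SLC25A members had 9 of 38 higher and 4 lower (median 0.13) and other solute carriers 6 of 144 higher and 75 lower (median -1.39). All genes at the limit had 11.1% higher and 23.7% lower, with a median of -0.32. The 13 mitochondrially encoded mRNAs kept a median of -2.46.

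Of the machinery that imports the carriers, 2 of 15 genes were higher and 3 lower over 10 lines, beside 6.92% and 42.1% of all genes at the limit. The counts were 6 and 3 with DESeq2's size factors, 7 and 2 with library size alone, 10 and 2 with upper-quartile scaling, 7 and 3 after subtraction. In the 5 lines of lower background they were 6 and 2, beside 9.17% and 27.6% of all genes at the limit. TOMM5, a small subunit of the TOM pore, and TIMM8B, a small TIM chaperone, rose by log2 1.12 and 0.79, while the receptors TOMM20 (-1.43) and TOMM70 (-1.65), the latter the main receptor for carrier precursors, and the TIM22 complex subunit AGK (-0.84) fell. Of 15 other mitochondrial channels and carriers, 6 were lower, among them the calcium uniporter MCU (-1.56) and the serine carrier SFXN1 (-1.04), and 1 (SFXN5, 1.34) was higher, shares near those of all genes. After subtraction 0 were lower and 3 higher, with MCU at -1.19 (adjusted p = 0.106, edgeR) and SFXN1 at -0.35 (adjusted p = 0.22), and with upper-quartile scaling 1 was lower and 4 higher. Of the family members under other symbols, UCP2 (-0.21), MTCH1 (-0.36) and MTCH2 (0.03) were not called as deposited, and MTCH2 was called higher after subtraction (0.84, adjusted p = 0.00237, edgeR). UCP3, at 0 to 0.198 CPM in cells and 1.10 to 18.5 CPM in vesicles, passed the limit through its vesicle libraries and was called higher.

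**Figure D5:**
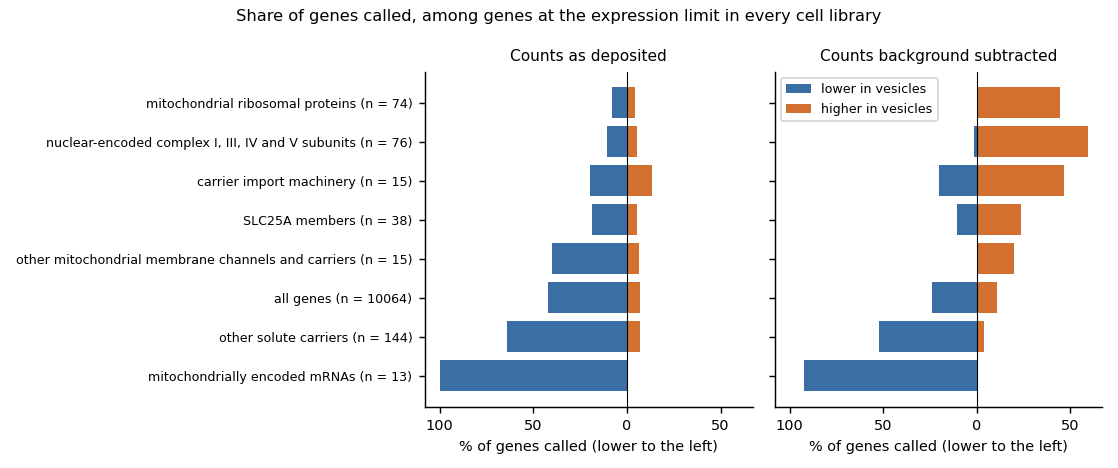
Share of genes called lower (left) and higher (right) in vesicles, for 7 gene lists and all genes, among genes at the expression limit in every cell library, from counts as deposited and after background subtraction. The SLC25A members have 18.4% lower and 5.26% higher in the first panel and 10.5% and 23.7% in the second.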

How the data were processed

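RNA-seq counts per gene were analysed for 20 libraries, 1 of cells and 1 of vesicles for each of 10 lines. The deposited values are raw read counts, which the authors made with STAR, featureCounts and the hg19 build, per the submitters' processing notes; versions, annotation and strand setting are not given in the sources used here, so reads of overlapping or antisense genes cannot be told apart. All 20 columns were named for 1 library each, and 0 were unmapped. Cultures of a line were not replicated, so the line is the replicate.

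Vesicles were compared with cells by edgeR 4.0.16 in R 4.3.3 (robust quasi-likelihood fit on all genes, TMM scaling, filterByExpr, cell line as block, Benjamini-Hochberg adjustment, threshold 0.05). The numbers pair the libraries because each number is 1 line per the labels. SEs came from the fold change and the root of its F statistic. On simulated counts for 16591 genes, the fit recovered 26% of changes of 1 on the log2 scale and 100% of changes of 2, with 5.97% false calls. That simulation changed 100 genes of each size, with as many rises as falls, at a fixed dispersion and without vesicle background. In the data far more genes were called and background was present, so these rates need not hold there. Vesicle background was predicted per gene from exonic length and GC content (GENCODE 29, matched for 17104 genes) by a quasi-Poisson fit on 2077 silent genes, and subtracted from the counts, which were rounded. Pair ratios used log2(CPM + 0.5) and were tested with scipy 1.17.1. A count of 0 allows up to 3 counts per library, for counting error only, since reads are not independent molecules. TPM was computed over the listed genes.

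Members, lists, pairs and tests were chosen with earlier results of these data known. Values in every group were given for the 8 members of highest TPM in cells, the 6 largest called falls and rises among members reaching a mean of 10 CPM in either compartment, and members of the pairs that passed. The values of 1 member are not reported here, in the text or the plots, and it stays in the counts, shares and medians. Alternatives were other scalings (DESeq2 1.42.0 and others), no filter, no block, a pseudocount of 2 CPM, leaving out lines, background subtraction and the 5 lines of lower background.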

Additional observations from a re-analysis of the deposited data

Results flagged for a closer look

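Vesicles of SNU-C1 stood apart from the other 9 vesicle libraries for 2 carriers, by a test for a single outlying value among 10 (Dixon's test). SLC25A3 there had a log2 CPM of 4.79, against 7.69 in the nearest line, and a vesicle minus cell difference of -3.78, against -1.15. SLC25A46 had a log2 CPM of 2.29, against 5.44, and a difference of -3.91, against -1.64. The SNU-C1 vesicle library held 87 counts of SLC25A3, where 59.9 were expected from background, and 14 of SLC25A46, where 41.7 were expected. It was also the shallowest library (1.75 M counts) and the one of highest background (41.7%), and their part in the result was not tested. In all, 48 sets of 10 values were examined and 4 stood out, where chance gives about 1 in 20.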

How the results depend on the processing

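The 7 members called higher stayed called with each left-out line and under each alternative on all 10 lines except background subtraction. After subtraction 3 of them stayed called. SLC25A18, SLC25A34, SLC25A41 and SLC25A48 did not pass the expression filter there and were not tested. In the 5 lines of lower background 6 of the 7 stayed called. For SLC25A18, SLC25A34, SLC25A41, SLC25A47 and SLC25A48, which passed the limit mainly through vesicle libraries, a rise was the only call open. Counts of higher members were 14 with DESeq2's size factors, 17 with library size alone, 20 with upper-quartile scaling, 19 with the DESeq2 test, 14 in the 5 lines and 7 to 10 with 1 line left out. Counts of lower members were 3 with DESeq2's size factors, 2 with upper-quartile scaling, 4 after subtraction, 3 in the 5 lines and 3 (without LoVo) to 9 (without HT-29) with 1 line left out. Shares of all genes beside these counts are given above for the scalings, subtraction, the 5 lines and without LoVo. For the DESeq2 test and the other left-out lines they are not given here. Without LoVo the lower calls were SLC25A24, SLC25A40 and SLC25A44. SLC25A24 and SLC25A40 were called lower in every alternative run. Pairs that passed numbered 2 to 4 with 1 line left out, 4 without HT-29 or SW480. Without the replicate block, which pairs libraries of a line, 9 members were higher and 5 lower, beside 22.9% and 22.7% of all genes. In that setting 3 pairs passed.

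Small fold changes reversed. SLC25A5 was 0.061 without the block, 0.26 with DESeq2's size factors, 0.35 with library size, 0.63 with upper-quartile scaling, 0.26 with DESeq2, 0.257, 0.099 and 0.028 without LoVo, SNU-C1 and LS123 (-0.22 to 0.26 over all left-out lines), 0.14 without WiDr and LS123, 0.70 after subtraction and 0.61 in the 5 lines. SLC25A3 was 0.038, 0.11 and 0.40 with the 3 scalings in that order, 0.035 with DESeq2, 0.061 without LoVo (-0.48 without SW480), 0.39 after subtraction and 0.54 in the 5 lines. SLC25A1 was 0.31, 0.41 and 0.68 with the scalings, 0.31 with DESeq2, 0.16, 0.014, 0.021 and 0.079 without LoVo, LS1034, WiDr and LS123 (-0.18 to 0.16 over all left-out lines), 0.18 without the last 2 together, 0.70 after subtraction and 0.19 in the 5 lines. SLC25A13 was 0.0085 and SLC25A12 0.17 with upper-quartile scaling. Pair differences reversed after subtraction for SLC25A5/SLC25A6 (0.31), SLC25A13/SLC25A12 (0.11), SLC25A37/SLC25A28 (-0.39) and SLC25A16/SLC25A42 (0.79), and in the 5 lines for SLC25A5/SLC25A4 (-0.039) and SLC25A16/SLC25A42 (0.030). The cause was not tested. Depth limits the rare members, whose vesicle counts lie near the expected background.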
